A study of Homo sapiens with 6 samples.

Results

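The genes described here are 8 genes through which a cell senses its sterols, controls SREBP processing, limits LDL uptake and moves cholesterol within the cell: *SREBF1*, *SREBF2*, *SCAP*, *INSIG1*, *INSIG2*, *MYLIP*, *STARD4* and *NPC1*. They were chosen by symbol from a table of 20381 genes, and each symbol was found once. The list was drawn up with results of this comparison known, so the values below describe the genes and are not independent support for a change. Poly(A) RNA of HCCLM3, a human hepatocellular carcinoma (HCC) line, was sequenced in 3 PON1-OE and 3 NC libraries. The PON1-OE cells carried the full-length *PON1* coding sequence from a lentiviral vector and were labelled as stable overexpression. The NC cells were labelled as NC control, and the design text names an empty vector lentivirus. The labels give WT as the cell type in both groups, and both lines were selected with puromycin. The promoter of the vector, whether the lines were single clones, and whether the 3 libraries of a group came from separate cultures are not given in the sources used here. The p-values therefore measure the spread between these libraries, which may be technical. The design text and the methods of the paper differ in the serum content of the medium, and the design text also gives a time after transfection.

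Cholesterol in the membrane of the endoplasmic reticulum is sensed by SCAP, an escort protein, and by the INSIG proteins, which hold SCAP and its cargo in place when sterols are plentiful. When sterols fall, SCAP carries the SREBP precursors to the Golgi, where they are cleaved, and the released factors switch on genes of cholesterol synthesis and LDL uptake. In hepatocytes this loop runs beside the LXR receptors, which respond to sterol excess and raise the export of cholesterol.

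Promoter sequences are shown for *SREBF2*, *INSIG1* and *STARD4*, known targets of SREBP2 with higher mean levels in PON1-OE, and for *SREBF1*, with a lower mean level. Those of *SCAP* and *NPC1*, also with higher mean levels, and of *INSIG2* and *MYLIP*, with lower ones, were searched but are not shown. The sequences are RefSeq windows on GRCh38.p14, written from 5′ to 3′ on the strand of the gene. Each runs from 250 bases before the start of the transcript to the first exonic base in GENCODE v29, and a stretch of 30 bases around the E-box of *INSIG1* is given by itself because it lies in an exon of GENCODE v29. Capitals mark matches to TCACNCCAC (a form of the sterol regulatory element, SRE), CACGTG (E-box) or CCAAT (NF-Y box), searched on both strands, and no match overlapped another.
SREBF2, chr22:41832855-41833078, plus strand: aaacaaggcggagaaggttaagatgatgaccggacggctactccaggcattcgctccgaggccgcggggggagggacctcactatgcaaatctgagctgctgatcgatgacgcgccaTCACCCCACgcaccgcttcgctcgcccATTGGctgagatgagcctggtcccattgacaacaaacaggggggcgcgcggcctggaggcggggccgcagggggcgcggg
INSIG1, chr7:155297628-155297775, plus strand: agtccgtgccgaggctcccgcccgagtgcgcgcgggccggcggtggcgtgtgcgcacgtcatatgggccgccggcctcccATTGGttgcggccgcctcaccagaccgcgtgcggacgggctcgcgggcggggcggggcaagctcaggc
INSIG1 around the E-box, chr7:155297811-155297840, plus strand: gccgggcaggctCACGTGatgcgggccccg
STARD4, chr5:111512591-111512785, minus strand: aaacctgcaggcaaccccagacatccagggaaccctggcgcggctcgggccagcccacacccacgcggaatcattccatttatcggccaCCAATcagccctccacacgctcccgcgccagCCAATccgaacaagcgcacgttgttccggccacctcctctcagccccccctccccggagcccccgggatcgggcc
SREBF1, chr17:17837003-17837236, minus strand: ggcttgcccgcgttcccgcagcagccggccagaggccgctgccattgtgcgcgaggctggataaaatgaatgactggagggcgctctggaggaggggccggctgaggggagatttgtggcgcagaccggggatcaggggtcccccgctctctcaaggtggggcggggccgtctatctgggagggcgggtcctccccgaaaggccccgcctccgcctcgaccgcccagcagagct

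Within the 250 bases before the start, the SRE letters were found for *SREBF2* alone of the 8 genes, 133 to 125 bases before the start. Of all 35116 RefSeq windows of this length, 0.883% held these letters. The E-box was found for *INSIG1*, 55 to 50 bases before the start, and for *SCAP*, and 6.34% of all windows held it. The NF-Y box was found for *SREBF2*, *INSIG1*, *STARD4* and *MYLIP*, with 32.0% of all windows holding it. The windows of *SREBF1*, *INSIG2* and *NPC1* held none of these letters. All 250 bases of the *NPC1* window and 172 of those of *SCAP* lie in exons of the same gene in GENCODE v29. Both windows lie inside their gene as annotated there, so they do not describe sequence upstream of the gene. For *SREBF1* only the window at the upstream end of the gene was searched, and transcript starts further inside the gene were not. A match is a description of the sequence, and binding was not measured here.

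The library totals lay between 15706672 and 17948383 estimated counts, and the 10 most abundant genes took 6.70% to 6.81% of a library. Genes kept by edgeR's filter on low counts numbered 11958, all 8 genes among them. Levels are given in TMM-normalized CPM (counts scaled to a common library size), on which a floor of 3 counts lay between 0.166 and 0.192 CPM. The floor covers counting error only. *PON1* had estimated counts of 0, 2 and 3 (NC) against 155, 181 and 167 (PON1-OE). The PON1-OE mean was at least 57.6-fold higher than a floor of 3 counts in any NC library. Of the hepatocyte markers, *KRT8*, *KRT18*, *HNF4A* and *TF* were present, *HNF4A* between 72.5 and 82.5 CPM and *TF* at 21.3 ± 1.73 CPM (NC) against 19.0 ± 1.02 CPM (PON1-OE; SD, n = 3 each), lower in PON1-OE without overlap. *ALB*, the serum albumin gene, lay between 0.250 and 0.762 CPM, and *TTR*, *AHSG* and *FGB* also stayed below 2 CPM in every library. *PTPRC* and *CD3E*, which mark leukocytes, had a count of 0 in every library, which allows up to 0.192 CPM, while *CD68* had 206 to 248 CPM. Of the endothelial markers *CDH5* was at or near 0, *VWF* averaged 0.480 CPM in each group, and *PECAM1* had 12.6 to 13.5 CPM in NC and 13.8 to 15.9 CPM in PON1-OE. The fibroblast markers *COL1A1*, *COL3A1* and *PDGFRB* stayed at or below 0.250 CPM. The part of these markers in the results was not tested.

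Together, the 8 genes showed small differences between PON1-OE and NC. By the quasi-likelihood test of edgeR, adjusted by Benjamini-Hochberg over all 11958 genes, 0 of the 8 had an adjusted p under 0.05, where 0.677% of all genes tested did (0.502% higher and 0.176% lower in PON1-OE). At an unadjusted p under 0.05 there were 4 of 8, *NPC1*, *INSIG1* and *SREBF2* with higher means in PON1-OE and *SREBF1* with a lower mean, where 11.1% of all genes did (5.91% higher and 5.17% lower). DESeq2 gave 1 of the 8 an adjusted p under 0.05, *NPC1*, and had no adjusted p for *INSIG2*, *MYLIP* and *STARD4*. In limma-voom 0 of the 8 passed. Among the genes to which it gave an adjusted p, 122 passed in DESeq2, and *PON1* was not one of these genes. In limma-voom 65 of all genes passed, against 81 in edgeR. The DESeq2 count and its adjusted p are therefore not over the same genes as the others. With the 1.5-fold threshold of the study's methods added, 0 of the 8 and 0.0502% of all genes passed (0.0251% in each direction), and the log2FC of the 8 lay between −0.34 and 0.29. Their median log2FC was 0.083, against −0.0025 over all genes tested, with 5 genes above 0 and 3 below. The groups did not overlap for 3 of the 8, *SREBF2*, *STARD4* and *NPC1*, all higher in PON1-OE, where 8.32% of all genes tested were separated in that direction and 7.74% in the other. Because the list was made with these results known, nothing was read from these shares. In RNA from whole cultures, a smaller share of cells with a transcript and less of it per cell cannot be told apart.

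Levels of different genes were compared only per length, as CPM per kb of exons in GENCODE v29. *NPC1* had by far the highest level in NC with 75.7 ± 3.54 CPM per kb, and 4.62% of the genes tested had a higher mean over the 6 libraries. *INSIG1* followed with 16.6 ± 2.39 and *SREBF2* with 16.4 ± 0.476 CPM per kb, which did not differ beyond their spread. *SCAP* had 10.8 ± 0.457 CPM per kb (SD, n = 3 for each). *SREBF1* with 8.38 ± 0.708 and *INSIG2* with 7.73 ± 0.538 CPM per kb lay within their spread of each other. *STARD4* with 1.52 ± 0.0786 and *MYLIP* with 0.640 ± 0.142 CPM per kb were the lowest, and 89.2% of the genes tested had a higher level than *MYLIP*. The order of the means in PON1-OE was the same.

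**Figure D1:**
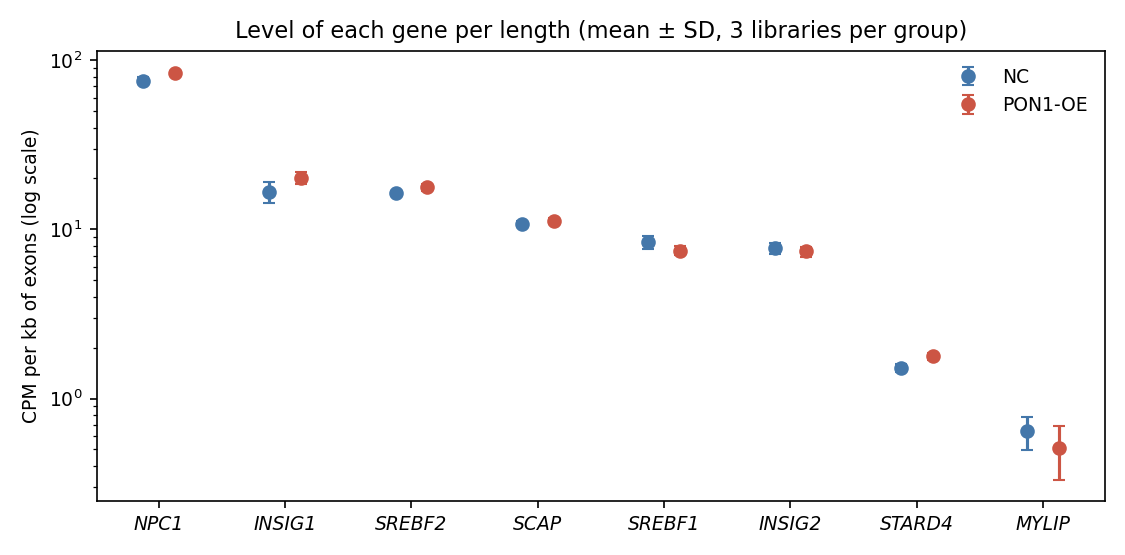
Level of each of the 8 genes as CPM per kb of exons on a log scale, with points for the mean and bars for the SD of 3 libraries in NC (blue) and PON1-OE (red). *NPC1* lies far above the others at 75.7 CPM per kb in NC, and *MYLIP* lies lowest at 0.640.

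The genes of the SREBP factors themselves had log2FC of opposite sign, neither past the adjusted p. *SREBF2* (ENSG00000198911, GRCh38 chromosome 22, 41833079 to 41907308, plus strand) encodes SREBP2, the factor that mainly drives cholesterol synthesis and LDL uptake. In the order of replicates 1 to 3, used throughout, its levels were 127, 120 and 124 CPM (NC) against 140, 131 and 130 CPM (PON1-OE). The lowest PON1-OE value exceeded the highest NC value, and the means were 124 ± 3.60 and 134 ± 5.57 CPM (SD, n = 3 each). The log2FC was 0.11 (standard error 0.045, 95% interval 0.017 to 0.21, adjusted p = 0.358 in edgeR). This interval covers differences from 1.01-fold to 1.15-fold. The gene shares 280 exonic bases with *SREBF2-AS1* on the opposite strand, and the sources used here do not say whether counting used strand.

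*SREBF1* (ENSG00000072310, minus strand of chromosome 17 from 17810399 to 17837002) encodes SREBP1, which mainly drives fatty acid synthesis and is itself a target of LXR. The counts per gene do not separate its SREBP-1a and SREBP-1c transcripts. Its levels were 72.5, 61.2 and 68.1 CPM (NC) against 60.2, 63.5 and 56.4 CPM (PON1-OE). The groups overlapped, because NC replicate 2 lay below PON1-OE replicate 2. The means were 67.3 ± 5.69 CPM (NC) against 60.0 ± 3.59 CPM (PON1-OE; SD, n = 3 each). The log2FC was −0.16 (standard error 0.065, 95% interval −0.30 to −0.028, adjusted p = 0.345 in edgeR). It was −0.11 without NC replicate 1, −0.12 without PON1-OE replicate 3 and −0.23 without NC replicate 2, with adjusted p from 0.127 to 0.761 in edgeR. In GENCODE v29, *SREBF1* shares 556 exonic bases with *RAI1* on the opposite strand. *RAI1* had 1975, 2199 and 2056 estimated counts (NC) against 1728, 1626 and 1613 (PON1-OE), a log2FC of −0.22 (adjusted p = 0.0187 from the same test). With the counts of both genes summed, of which *RAI1* gave the larger part, the log2FC of the sum was −0.20 and the adjusted p 0.0218 in edgeR. How far reads were exchanged between the genes was not tested.

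The ratio of *SREBF2* to *SREBF1* within a library was 1.75, 1.96 and 1.82 (NC) against 2.33, 2.06 and 2.30 (PON1-OE). It was higher in every PON1-OE library than in every NC library, with means of 1.85 ± 0.105 and 2.23 ± 0.145 (SD, n = 3 each). The ratio of *INSIG1* to *INSIG2* was 2.50, 1.66 and 1.86 (NC) against 2.56, 2.69 and 2.33 (PON1-OE). These groups overlapped through NC replicate 1. Both ratios combine values already described and were not tested. No share over other pairs of genes was computed, so nothing was read from the separation.

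**Figure D2:**
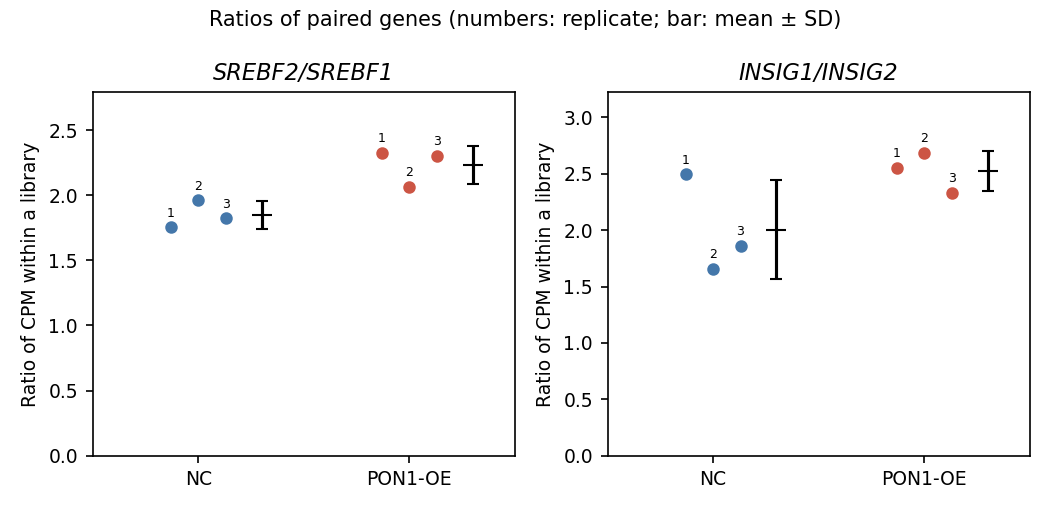
Ratio of CPM of *SREBF2* to *SREBF1* (left) and of *INSIG1* to *INSIG2* (right) in each library, with numbers for the replicate and bars for mean ± SD of 3 libraries. The *SREBF2* to *SREBF1* ratios of NC, up to 1.96, lie below those of PON1-OE, from 2.06, while the *INSIG1* to *INSIG2* ratio of NC replicate 1 lies among those of PON1-OE.

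*SCAP* (ENSG00000114650, minus strand of chromosome 3 from 47413694 to 47477126), which encodes the escort protein, had 72.4, 66.5 and 69.8 CPM (NC) against 75.6, 71.7 and 69.1 CPM (PON1-OE). The groups overlapped. Its log2FC was 0.054 with a 95% interval of −0.060 to 0.17 (adjusted p = 0.790 in edgeR), which covers differences from 0.959-fold to 1.12-fold. It was 0.022 without NC replicate 2 and 0.023 without PON1-OE replicate 1, and 0.083 without NC replicate 1 or PON1-OE replicate 3.

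*INSIG1* (ENSG00000186480, plus strand of chromosome 7 from 155297776 to 155310235) encodes a retention protein and is a well-known SREBP target, so that its mRNA is often read as a sign of SREBP activity. It had the highest log2FC of the 8 genes. Its levels were 70.3, 53.4 and 58.2 CPM (NC) against 80.1, 73.8 and 67.4 CPM (PON1-OE). NC replicate 1 stood above the other NC libraries and above PON1-OE replicate 3, so that the groups overlapped. The means were 60.6 ± 8.71 CPM (NC) against 73.8 ± 6.35 CPM (PON1-OE; SD, n = 3 each), and the log2FC was 0.29 (standard error 0.079, 95% interval 0.12 to 0.45, adjusted p = 0.130 in edgeR). Without NC replicate 1 the log2FC was 0.40 and the adjusted p 0.0215 in edgeR. Without the filter on low counts the log2FC stayed at 0.29, and the adjusted p was 0.00397 in edgeR. In that fit 177 of all genes had an adjusted p under 0.05, against 81 with the filter. With NC replicate 2, PON1-OE replicate 1 or NC replicate 3 left out, the log2FC was 0.20, 0.23 or 0.26, and the adjusted p 0.311, 0.325 or 0.465 in edgeR.

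*INSIG2* (ENSG00000125629, plus strand of chromosome 2 from 118088452 to 118110997), the paralog that shares this role and is not driven by SREBP in the same way, had 28.2, 32.2 and 31.3 CPM (NC) against 31.4, 27.5 and 28.9 CPM (PON1-OE). The groups overlapped widely. Its log2FC was −0.064 with a 95% interval of −0.22 to 0.097 (adjusted p = 0.828 in edgeR), which covers differences from 0.856-fold to 1.07-fold. It was −0.019 without PON1-OE replicate 2 and −0.023 without NC replicate 2, and −0.12 without NC replicate 1 and −0.11 without PON1-OE replicate 1.

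**Figure D3:**
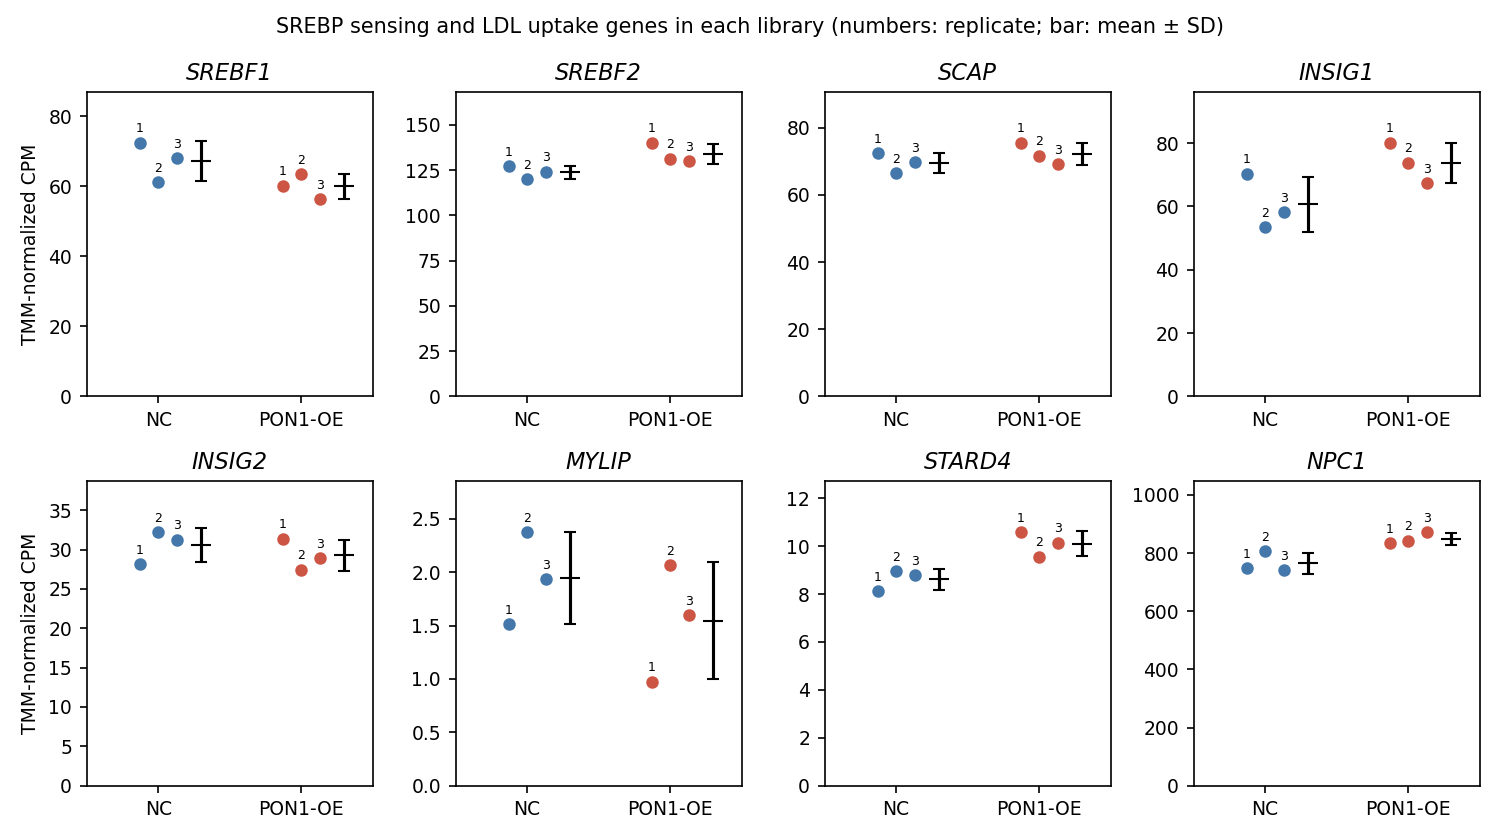
TMM-normalized CPM of the 8 genes in each NC (blue) and PON1-OE (red) library, with numbers for the replicate, bars for mean ± SD of 3 libraries, and axes that start at 0. The groups are apart for *SREBF2*, *STARD4* and *NPC1*, and NC replicate 1 of *INSIG1* at 70.3 CPM lies among the PON1-OE values.

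*MYLIP* (ENSG00000007944, plus strand of chromosome 6 from 16129125 to 16148248), also called IDOL, encodes a ubiquitin ligase that marks the LDL receptor for degradation and is induced by LXR. It was expressed at a low level, with estimated counts of 25, 43 and 33 (NC) against 16, 33 and 25 (PON1-OE). In CPM these were 1.51, 2.38 and 1.94 (NC) against 0.974, 2.06 and 1.60 (PON1-OE), and the groups overlapped. The log2FC was −0.34 with a 95% interval of −0.98 to 0.30 (adjusted p = 0.751 in edgeR). At this depth the interval reaches from 0.509-fold to 1.23-fold. The log2FC was −0.086 without PON1-OE replicate 1 and −0.60 when replicate 2 of that group was left out instead.

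*STARD4* (ENSG00000164211, minus strand of chromosome 5 from 111496033 to 111512590) encodes a soluble carrier of cholesterol between membranes and is a known SREBP2 target. It had 134, 162 and 150 estimated counts (NC) against 174, 153 and 159 (PON1-OE), which gave 8.11, 8.96 and 8.80 CPM (NC) against 10.6, 9.57 and 10.2 CPM (PON1-OE). All PON1-OE libraries lay above all NC libraries in CPM, with means of 8.62 ± 0.447 and 10.1 ± 0.515 CPM (SD, n = 3 each). The log2FC was 0.23 (standard error 0.12, 95% interval −0.013 to 0.47, adjusted p = 0.481 in edgeR).

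*NPC1* (ENSG00000141458, minus strand of chromosome 18 from 23506184 to 23586898) encodes the membrane protein through which cholesterol from LDL leaves the lysosome. It had 749, 806 and 740 CPM (NC) against 833, 843 and 872 CPM (PON1-OE). The PON1-OE libraries were all above the NC libraries, the nearest being NC replicate 2. The means were 765 ± 35.7 and 850 ± 20.4 CPM (SD, n = 3 each), and the log2FC was 0.15 (standard error 0.036, 95% interval 0.075 to 0.23, adjusted p = 0.0613 in edgeR). This was the smallest adjusted p of the 8 genes. The adjusted p was under 0.05 in DESeq2 (0.00349). In edgeR it was under 0.05 without the filter on low counts (0.00747), with at least 10 counts in every library (0.0489) and without NC replicate 2 (0.0128). Every other setting gave a higher value: 0.0518 in limma-voom, and in edgeR 0.0618 for RLE size factors and 0.151 for the replicate block. Among NC libraries, leaving out replicate 3 gave 0.369 and replicate 1 gave 0.346 in edgeR. For PON1-OE, dropping replicate 1, 2 or 3 gave 0.0824, 0.0560 or 0.337. *NPC1* shares 604 exonic bases with *RMC1* on the opposite strand, and with both genes summed its log2FC was 0.15 (adjusted p = 0.0733 from edgeR).

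**Figure D4:**
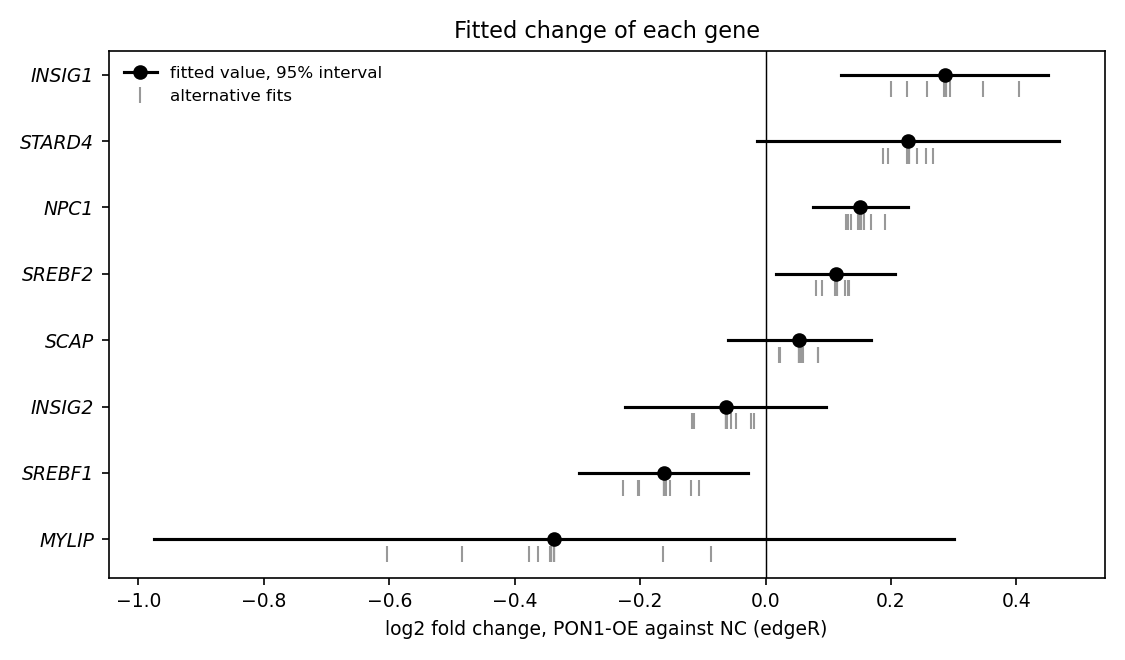
Fitted log2 fold change of each gene in PON1-OE against NC from edgeR, with the 95% interval as a line and the values of the alternative fits as grey ticks below it. The points run from −0.34 for *MYLIP* to 0.29 for *INSIG1*, and no tick of a gene lies across 0 from its point.

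The wider pathway was described with 6 lists of 92 genes, of which 86 were tested. These lists were also chosen with earlier results of these data known. The shares of all genes given beside them are therefore description only, and nothing was read from them. In the same edgeR fit, 7 of the 86 had an adjusted p under 0.05, all higher in PON1-OE, where 0.502% of all genes tested were higher at this threshold. All 7 were among the 19 sterol synthesis enzymes, namely *MSMO1*, *CYP51A1*, *FDPS*, *DHCR7*, *HMGCS1*, *NSDHL* and *SQLE*. Their log2FC lay between 0.23 for *NSDHL* and 0.41 for *MSMO1*, a C4-methyl sterol oxidase (116 and 155 CPM on average, adjusted p = 0.000415 from edgeR). *HMGCS1*, which makes the HMG-CoA of the mevalonate pathway, had averages of 62.7 and 79.0 CPM (log2FC 0.33, adjusted p = 0.0368 from edgeR). The 19 enzymes were all above 0, with a median log2FC of 0.23, where 5863 of all genes tested were above 0 and 6095 below. The count of 7 became 6 without NC replicate 1, 5 without PON1-OE replicate 2, 4 without NC replicate 2, with *GRAMD1B* lower among them, 1 on leaving out NC replicate 3 or PON1-OE replicate 1, and 2 on leaving out PON1-OE replicate 3.

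The other lists held no gene past the adjusted p in edgeR. The 17 genes of SREBP cleavage and sterol sensing in the endoplasmic reticulum, such as *MBTPS1* and *MBTPS2* for the proteases, had a median log2FC of 0.016. Of these, 0 had an unadjusted p under 0.05 in edgeR, where 11.1% of all genes tested did. The smallest p values were those of *ERLIN1* (log2FC 0.072) and *UBE2G2* (log2FC −0.067). The 12 enzymes of fatty acid synthesis and desaturation, known targets of SREBP1, had a median of 0.069, with 11 above 0 and 1 below. At an unadjusted p under 0.05 were *FASN* (log2FC 0.12, adjusted p = 0.217 from edgeR), *FADS2* (log2FC 0.17) and *ACSS2* (log2FC 0.15). Of all genes tested, 5.91% were higher and 5.17% lower at this p. The 15 genes of LDL endocytosis and recycling had a median of 0.053, with *WASHC5* (log2FC 0.14) and *LRP1* (log2FC 0.10) having the smallest p values.

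Of the 10 LXR receptors and targets 7 were tested, and 4 of these had an unadjusted p under 0.05 in edgeR, 1 with a higher and 3 with a lower mean in PON1-OE, where 11.1% of all genes did (5.91% higher and 5.17% lower). The median log2FC of the 7 was −0.036. *SMPDL3A* had a log2FC of 0.37 (adjusted p = 0.193), *LPCAT3* of −0.19 (adjusted p = 0.211), *NR1H3*, which encodes LXRα, of −0.30 (adjusted p = 0.351), and *ABCA1*, the cholesterol exporter, of −0.55 (adjusted p = 0.270), all from edgeR. *ABCA1* had 98, 130 and 130 estimated counts (NC) against 92, 45 and 90 (PON1-OE), with PON1-OE replicate 2 far below the others. *NR1H3* and *ABCA1* were named after their values were seen. *SREBF1* and *MYLIP*, also LXR targets, had log2FC of −0.16 (adjusted p = 0.345) and −0.34 (adjusted p = 0.751) in edgeR. The groups overlapped for both, and *MYLIP* had low counts. Among 16 tested genes of sterol transport and storage, *OSBPL5* had a log2FC of 0.27 (adjusted p = 0.139) and *GRAMD1B* of −0.41 (adjusted p = 0.226) in edgeR, and the median was −0.021.

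**Figure D5:**
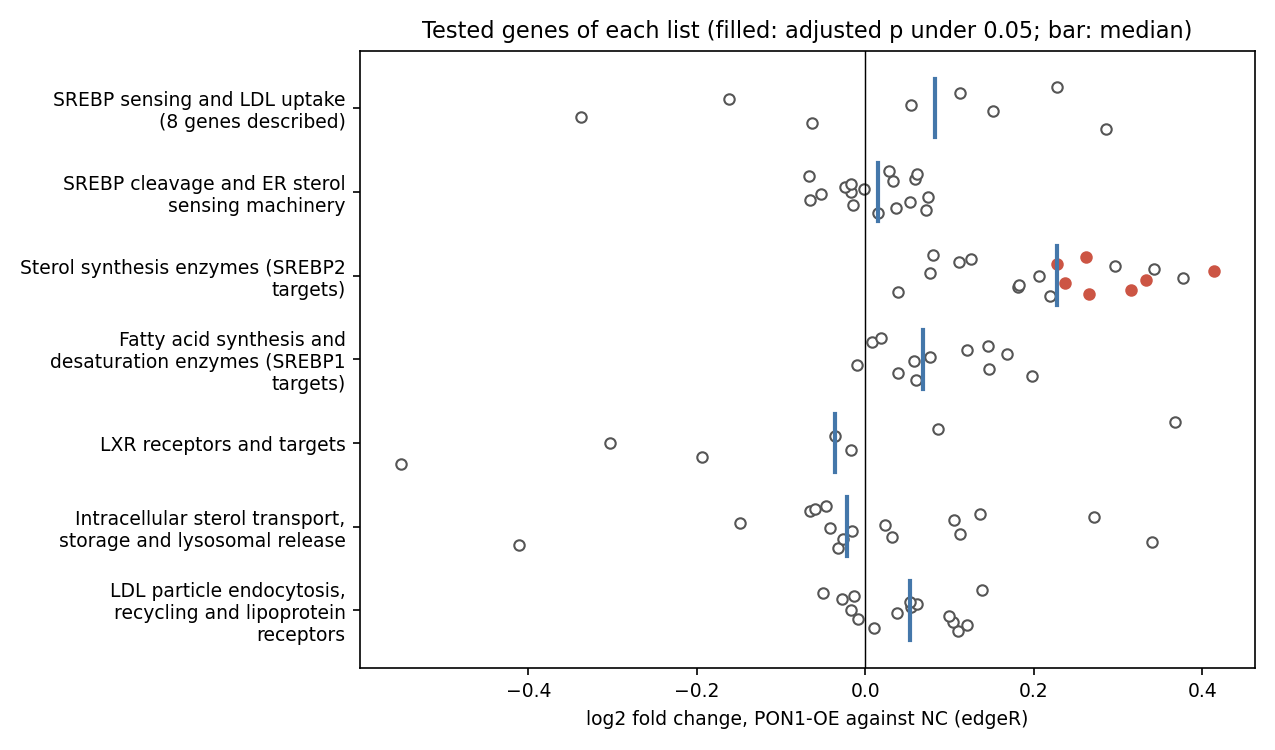
Fitted log2 fold change in PON1-OE against NC for the tested genes of each list, 1 circle per gene, filled in red at an adjusted p under 0.05 in edgeR, with a blue bar for the list's median. The 7 filled circles are all in the list of sterol synthesis enzymes, which has a median of 0.23, while the 8 genes described have a median of 0.083.

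The tested genes with a mean of at least 10 CPM whose log2 CPM over the 6 libraries was most like that of *INSIG1* were *STK40* (Pearson r = 0.992), *SMYD2* (r = 0.983), *ACAT2* (r = 0.980), *EBP* (r = 0.977) and *UPK1B* (r = 0.975). These values describe 6 libraries in 2 groups and carry no test. *ACAT2*, an acetyl-CoA acetyltransferase at the entry to the mevalonate pathway, had 37.6, 31.6 and 32.6 CPM (NC) against 40.6, 40.4 and 37.4 CPM (PON1-OE). *EBP*, a sterol isomerase, had 116, 92.3 and 100.4 CPM (NC) against 120.1, 119.9 and 110.0 CPM (PON1-OE). As for *INSIG1*, NC replicate 1 was the highest NC library for both, and it lay above PON1-OE replicate 3 for both. Both genes were picked for likeness to *INSIG1* over these same libraries, so nothing was read from this shared order. NC replicate 1 also lay above PON1-OE replicate 3 for *STK40* (71.6 against 71.2 CPM) and *UPK1B* (11.5 against 9.64 CPM). For *SMYD2* it lay below (19.4 against 19.8 CPM). Of the 19 sterol synthesis enzymes, 14 (73.7%) were highest in NC replicate 1 among the NC libraries, where 32.4% of all genes tested were. Of the 8 genes described, 4 were highest in NC replicate 1 and 4 in NC replicate 2. Without NC replicate 1 the median log2FC of the 8 genes was 0.11, and it was also 0.11 without PON1-OE replicate 3. With NC replicate 1 left out, 6 genes of the wider lists had an adjusted p under 0.05 in edgeR, against 7 with all libraries.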

How the data were processed

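The authors deposited estimated counts per gene for 20381 Ensembl identifiers in 6 libraries, without normalization, and 10.5% of the values were not whole. The submitters' processing notes name Bowtie2 2.2.8, HISAT2, StringTie 1.3.1 and DESeq2, and the genome build, annotation and use of strand are not given in the sources used here. Columns were matched to libraries by name. Values were rounded, and edgeR 4.0.16 was run in R 4.3.3 (filterByExpr, TMM, glmQLFit and glmQLFTest, no covariates, two-sided), with limma 3.58.1 and DESeq2 1.42.0 as alternatives. The Benjamini-Hochberg adjustment covered 11958 genes in the main edgeR fit, while DESeq2 left some genes without an adjusted p. The 95% intervals are the log2FC plus or minus the standard error from the F statistic times the t quantile. Other settings were a block on the replicate number, each library left out, RLE size factors, and the filter removed or set to 10 counts or more in all libraries. After the values were seen, counts of genes with shared exons were also summed. The fits were tested on simulated counts. Replicate libraries of a group were farther apart than sampling noise (chi-square per degree of freedom 2.11 to 4.11).

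The 8 genes and the 6 wider lists were chosen with earlier results of these data known. The genes named are the 8, *PON1*, genes of the wider lists at an adjusted p under 0.05, the 2 smallest p of other lists, and the 5 most like *INSIG1*. Outside this rule, cell type markers, neighbours with shared exons and a few further list genes (*MBTPS1*, *MBTPS2*, *ACSS2*, *NR1H3*, *ABCA1*) are named, the latter after their values were seen. Exon lengths and positions come from GENCODE v29 on GRCh38, which held 20126 of the identifiers. RefSeq windows were found for all 8 genes, with more than 1 for *INSIG2*. Some genes of LDL uptake are not reported here.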

Additional observations from a re-analysis of the deposited data

How the results depend on the processing

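The log2FC of each of the 8 genes kept its sign under every alternative run, and their median lay between 0.051 and 0.11. The count of the 8 genes with an adjusted p under 0.05, 0 in edgeR, was 2 without the filter on low counts (*INSIG1* and *NPC1*), 1 with at least 10 counts in every library (*NPC1*), 1 in DESeq2 (*NPC1*), 1 with shared neighbours summed (the sum of *SREBF1* and *RAI1*, of which *RAI1* alone passed), and 0 to 1 with single libraries left out. Over all genes, 81 had an adjusted p under 0.05, which became 177 without the filter, 40 with the replicate block, 122 in DESeq2 and 11 to 103 with single libraries left out. With a change over 1.5-fold added there were 6 genes, 3 higher and 3 lower, which became 23 without the filter, 1 in DESeq2 and 4 to 10 with single libraries left out (10 without NC replicate 2, 9 higher and 1 lower), and 4 with RLE size factors (3 higher and 1 lower). The count of 7 genes of the wider lists ranged from 1 to 6 with single libraries left out. DESeq2 gave no adjusted p for *PON1*, *INSIG2*, *MYLIP* and *STARD4*, so its counts are not over the same genes as those of edgeR. *PON1* could not be tested at 10 counts in every library. Where values moved, the cause was not tested.

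No pairing of the libraries by replicate number was seen. The correlations of the deviations of same-numbered libraries were 0.030, −0.057 and −0.015, and those of differently numbered libraries ran from −0.099 to 0.102. Such correlations over all genes tested, with low counts among them, cannot exclude a pairing. The block changed no call among the 8 genes. Counts of 16 to 43 limit *MYLIP*.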
